A study of Homo sapiens with 12 samples.

Results

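The clustered replication-dependent histone genes were described in A549, a human lung adenocarcinoma cell line of epithelial type. Members were the rows of the expression table whose symbol starts with HIST1H, HIST2H, HIST3H or HIST4H and whose value was above 0 in at least 6 of the 12 libraries. By this rule 51 of the 25365 names in the table were members. A further 19 rows carry such a symbol but were below the rule, and 10 of them were at 0 in every library. At the edge of the rule, HIST1H3G (mean 0.065 FPKM) was above 0 in 5 libraries and stayed outside. HIST1H2AB (mean 0.11 FPKM), HIST1H2BM (0.102 FPKM) and HIST1H3I (0.0911 FPKM) were above 0 in 6 libraries and were just inside. FPKM counts fragments per kilobase of a transcript, relative to all mapped fragments of the library, and so corrects for transcript length and depth.

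The 4 groups were wild-type (WT) and PARP3-/- A549 cells, each given vehicle (DMSO) or 1 μM pyridostatin, a small molecule that stabilizes G4 DNA, for 24 h. Each group had 3 biological replicates. The PARP3-/- cells had been made by transient expression of Cas9 and guides that cut a short stretch out of the gene, and were then cloned by serial dilution, so a difference from WT can also be a difference between a clone and its parent line. The series asks how loss of PARP3 and pyridostatin change the transcriptome. PARP3 itself was at 3.73 ± 0.293 FPKM (SD, n = 3) in WT and 4.41 ± 0.447 in the libraries labelled PARP3-/- with vehicle, and at 3.79 ± 0.243 and 4.58 ± 0.245 with pyridostatin. The PARP3-/- label thus did not go with a lower PARP3 level. Values summed over the whole gene do not test a short deletion, so directions between genotypes below rest on the labels alone. The epithelial keratins KRT8, KRT18 and KRT7 were at 1504 to 3375 FPKM in all libraries, whereas the epithelial adhesion genes were lower, with CDH1 at 9.85 to 16.7 FPKM and EPCAM at 0.879 to 2.36. Of the markers of other cell types, CD14 of monocytes was at 2.81 to 6.26 FPKM and COL1A1 of fibroblasts at 0.572 to 1.63. PTPRC and CD3E of blood cells, PECAM1, VWF and CDH5 of endothelium, and DCN, LUM and PDGFRA of fibroblasts were at 0 to 0.454 FPKM. The part of CD14 and COL1A1 in the results was not tested. Relative read depth, estimated from the steps between low values, ran from 0.861 (PARP3-/- vehicle replicate 3) to 1.22 (WT pyridostatin replicate 2) of the median library.

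Replication-dependent histone genes supply the core histones H2A, H2B, H3 and H4 and the linker histone H1 while DNA is copied in S phase. They lie in clusters, and their mRNAs are the known exception among protein-coding transcripts in that they usually end in a short stem-loop in place of a poly(A) tail. The stem-loop is bound by SLBP, which guides 3′ end cutting, export, translation and decay of the mRNA. Some of these genes can also be read through to a downstream poly(A) site, above all in cells that have left the cycle. The libraries were mRNA libraries made with a kit that captures poly(A) RNA. The values below therefore describe the captured RNA of each gene and not its total RNA, and tailed and untailed forms cannot be told apart in them.

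The stem-loop was looked for in the transcript models of GENCODE release 29 (GRCh38), because it is the feature that sets these mRNAs apart. It was found in 25 of the 51 members, against 67 of 58721 genes in the whole annotation (0.114%). In 24 of the 25 it began 22 to 67 bases after the stop codon, with a median of 36, and the model of the remaining member, HIST2H2BC, has no stop codon. Of the 26 members without it, 22 have no base after the stop codon in any model, HIST1H2BK and HIST1H1C among them, so the search could not find it there. In 20 of the 25 members the model runs on for over 100 bases beyond the stem-loop. The 16 bases of the stem and loop took 6 forms, and 1 member of each is shown in the sense of the mRNA, with the stem and loop in capitals.
HIST1H2AC: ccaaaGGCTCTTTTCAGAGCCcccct
HIST1H4E: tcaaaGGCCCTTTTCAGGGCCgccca
HIST1H2BD: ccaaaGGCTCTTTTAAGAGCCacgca
HIST2H4B: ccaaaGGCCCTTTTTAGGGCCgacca
HIST2H2BC: ccaaaGGCTCTTTTCAGGGCCattta
HIST1H3E: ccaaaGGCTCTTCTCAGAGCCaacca

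These sites lie in the transcribed part after the stop codon, or in the transcribed pseudogene for HIST2H2BC, at chr6:26124664-26124689 (HIST1H2AC, plus strand), chr6:26204996-26205021 (HIST1H4E, plus strand), chr6:26158582-26158607 (HIST1H2BD, plus strand), chr1:149860764-149860789 (HIST2H4B, minus strand), chr1:149850297-149850322 (HIST2H2BC, minus strand) and chr6:26225591-26225616 (HIST1H3E, plus strand). The form of HIST1H2AC was the most frequent and was shared by 13 members of H2A, H2B and H3. The form of HIST1H4E was found in 4 members, all of H4, and the form of HIST2H4B in 2, again both of H4. HIST1H2BD shared its form with HIST1H2BC and HIST1H2BF, all of H2B. The pseudogene HIST2H2BC shared its form with HIST1H2AG. HIST1H3E alone had its form. The 6 H4 members with a stem-loop thus shared no form with a member of another subfamily.

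Promoters were read from RefSeq (GRCh38.p14) as 250 bases before to 50 after the gene start, and 41 of the 51 members matched an entry. The octamer ATTTGCAT, the motif of the factor POU2F1 that is known from H2B promoters, was searched on both strands. It stood in 10 of 14 H2B promoters and 8 of 11 H2A promoters, and in none of 3 H1, 5 H3 and 8 H4 promoters. Of all 35116 RefSeq promoters of the same length, 1.77% held it. CCAAT stood in 34 of the 41 promoters (34.6% of all RefSeq promoters) and TATAAA in 28 (11.5%), and only 1 of the 8 H4 promoters held CCAAT. A match is a run of letters and not a measured binding site. The octamer is shown in capitals for HIST1H2BK, the member with the highest level, and for 3 pairs of an H2A and an H2B gene.
HIST1H2BK: tcttcaccttATTTGCATgagaggtcct
HIST1H2AC: gggcagagctATGCAAATgaggtatgaa
HIST1H2BC: ttcatacctcATTTGCATagctctgccc
HIST2H2AC: taaccaccttATGCAAATtagggctccg
HIST2H2BE: cggagccctaATTTGCATaaggtggtta
HIST1H2AG: agaatcgcttATGCAAATaaggtgaaga
HIST1H2BJ: tcttcaccttATTTGCATaagcgattct

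The HIST1H2BK window is chr6:27146887-27146914 on the minus strand, with the octamer at position -46 from the gene start. The windows of HIST1H2AC and HIST1H2BC are the same stretch, chr6:26124032-26124059, read from opposite strands, since these neighbours are transcribed away from each other. The same holds for HIST2H2AC with HIST2H2BE (chr1:149886711-149886738) and for HIST1H2AG with HIST1H2BJ (chr6:27132825-27132852). Of the members, 5 such pairs shared an octamer window. Sharing it did not go with equal levels of captured RNA. The FPKM ratio of HIST1H2AC to HIST1H2BC was 2.54 to 7.50 over the 12 libraries (median 3.68), that of HIST2H2AC to HIST2H2BE was 1.03 to 2.12 (median 1.58), and that of HIST1H2AG to HIST1H2BJ was 0.304 to 1.22 (median 0.601).

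Captured histone RNA was low and was carried by a few genes. The 51 members together made up 180.9 to 223.3 FPKM per library. HIST1H2BK alone held 36.2% of the members' summed FPKM, the 2 highest members 49.5%, the 5 highest 68.1% and the 10 highest 81.9%. Only 24 members reached a mean of 1 FPKM and only 7 a mean above 5 FPKM. HIST1H2BK, one of several genes for H2B, was at a mean of 70.9 FPKM, from 63.2 to 81.9 over the 12 libraries, and ranked 1152 among all names in the table. HIST1H1C, a gene for the linker histone H1, followed at 26.1 FPKM (20.6 to 30.1).

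The next members were HIST1H2BD (H2B) at a mean of 13.4 FPKM, with a range of 11.4 to 16.6, and HIST1H2AC (H2A) at 12.3 FPKM, with a range of 9.12 to 15.1. HIST2H2BC, annotated in GENCODE as a transcribed pseudogene of H2B, was at 10.5 FPKM (7.95 to 13.0). HIST2H4B, the highest gene for H4, was at 8.52 FPKM (6.75 to 11.3). The tenth and lowest of these, HIST1H2BC (H2B), was at 3.30 FPKM, and HIST2H2AA3 (7.58), HIST2H2AC (4.10) and HIST3H2A (3.67), all genes for H2A, lay between. HIST1H3H, the highest gene for H3, was at 2.44 FPKM (1.84 to 3.11). HIST4H4, the single member of the cluster on chromosome 12, was at 0.315 FPKM and at 0 in 2 libraries. The ratio of the highest to the lowest library was 1.30 to 2.61 for the 10 highest members and reached 4.13 for HIST1H4E among the 24. Several members have near-identical copies, such as HIST2H4A for HIST2H4B, HIST2H2AA4 for HIST2H2AA3 and HIST2H3A for HIST2H3C. These copies have no row of their own, since all 10 HIST2 rows are members and none is such a copy. Whether and how reads of the copies entered the members' values is not known, so these single values are uncertain.

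**Figure D1:**
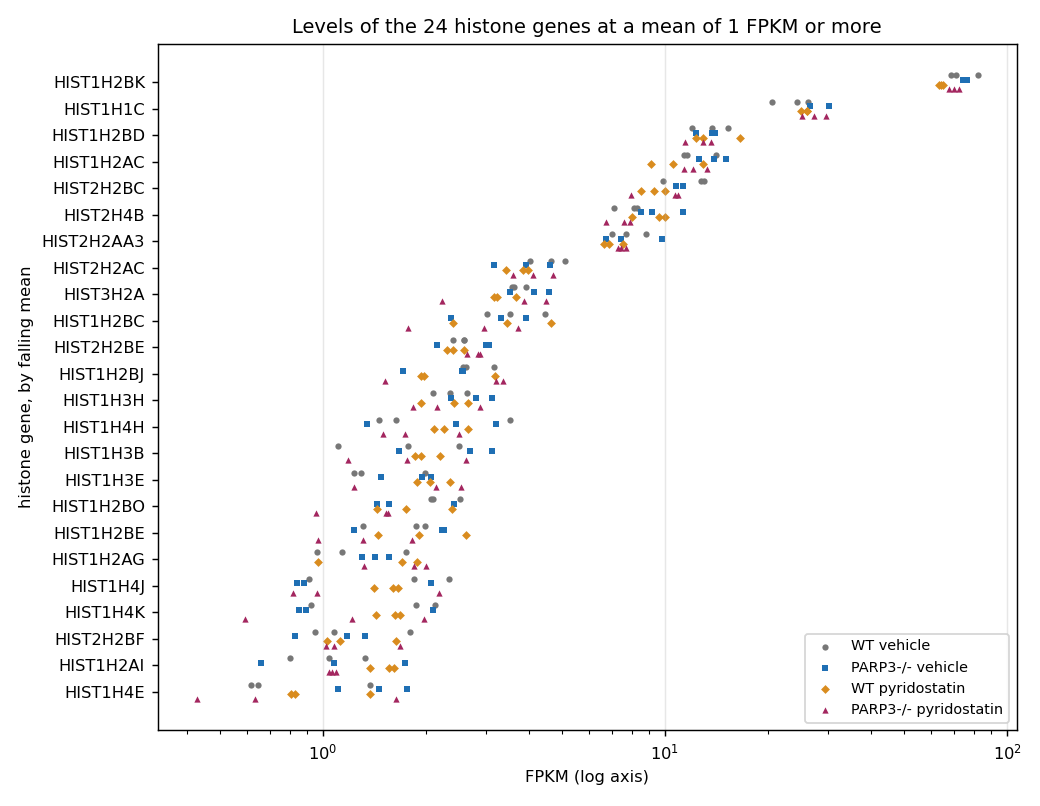
Levels of the 24 histone genes that were tested, on a log axis in FPKM, with 1 point for each of the 12 libraries and a colour and shape for each of the 4 groups. HIST1H2BK sits at 63.2 to 81.9 FPKM, above all other members in every library, and the groups lie mixed in most rows.

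By subfamily, the captured RNA was mostly that of H2B, and within H2B mostly that of HIST1H2BK. The 16 H2B members held 56.8% of the members' summed FPKM and the 13 H2A members 17.0%. HIST1H2BK made up 63.7% of the H2B sum, and the pseudogene HIST2H2BC, counted with H2B, held 5.38% of the sum of all members. The 3 H1 members held 13.7%, nearly all of it (97.4%) from HIST1H1C. The 10 H4 members held 8.30% and the 9 H3 members 4.21%. A nucleosome holds equal numbers of the 4 core histones, and captured RNA did not follow this proportion. By cluster, the 38 members of HIST1 on chromosome 6 held 79.3%, the 10 of HIST2 and the 2 of HIST3 on chromosome 1 held 18.5% and 2.01%, and HIST4H4 held 0.161%.

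The summed FPKM of all members was 192.7, 206.7 and 195.1 in the 3 WT vehicle libraries (198.2 ± 7.49, SD, n = 3) and 195.8, 203.1 and 223.3 with the PARP3-/- label and vehicle (207.4 ± 14.2). With pyridostatin it was 184.3, 180.9 and 194.6 in WT (186.6 ± 7.12) and 190.8 ± 8.16 with the PARP3-/- label, where the lowest library was at 184.2 and the median one at 188.4. The groups overlapped in each of the 4 comparisons. Once each library was scaled to a common median, the sum was 195.7 to 223.2 with vehicle and 182.2 to 195.0 with pyridostatin in PARP3-/-, without overlap. In the subfamilies, the H2B sum was 113.2 to 122.3 FPKM in WT with vehicle and 100.7 to 108.7 with pyridostatin, with no overlap. The H1 sum was 21.0 to 26.8 FPKM in WT and 27.4 to 31.0 in PARP3-/- with vehicle, with no overlap as deposited, although these groups overlapped once each library was scaled to a common median. The H4 sum was 16.2 to 17.1 FPKM in WT and 12.8 to 16.0 in PARP3-/- with pyridostatin, again with no overlap. HIST1H2BK held 63.7% of the H2B sum, HIST1H1C 97.4% of the H1 sum and HIST2H4B 52.4% of the H4 sum. Each of these genes was itself without overlap in the same comparison, so these sums may each be that of a single gene. The HIST2 sum was also separated, at 37.0 to 38.7 FPKM with vehicle and 32.3 to 36.7 with pyridostatin in WT. Its highest gene, HIST2H2BC, held 29.1% of it and overlapped. In PARP3-/-, the sum of members under 1 FPKM was 10.9 to 11.4 with vehicle and 9.28 to 9.83 with pyridostatin. After scaling, the H2B, HIST1 and HIST2 sums were also lower with pyridostatin in PARP3-/-, without overlap. As deposited, those of H2A, H3, HIST1, HIST3 and HIST4 overlapped throughout. Without HIST1H2BK, the sum of all other members overlapped in WT, at 124.2 to 124.8 FPKM with vehicle and 115.9 to 130.6 with pyridostatin. These sums were not tested, and with 3 against 3 libraries no exact test could go below p = 0.1.

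**Figure D2:**
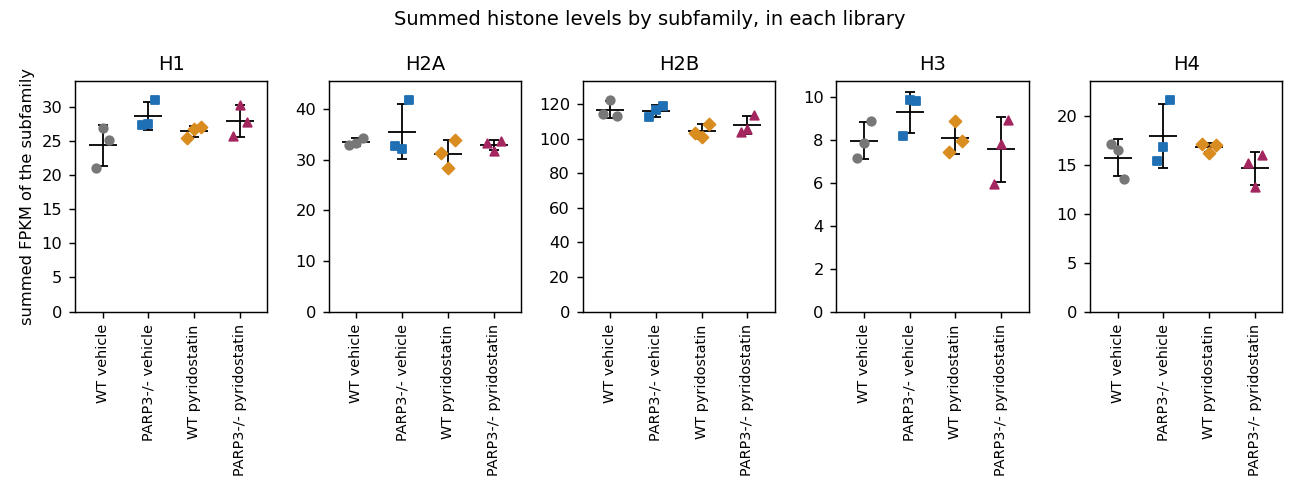
Summed FPKM of the members of each histone subfamily, with 1 panel for a subfamily, 1 point for a library and black marks for the mean ± SD of 3 libraries. The axes start at 0 and differ between panels: H2B reaches 122.3 FPKM and H3 stays under 10. The 3 WT pyridostatin libraries lie below the 3 WT vehicle libraries in H2B, a sum of which HIST1H2BK held 63.7%.

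Comparisons used limma on log2(FPKM + 1), with 1 model for all groups and all 11881 genes whose mean reached 1 FPKM. The 24 members at that mean were tested and the other 27 were not. A gene was called at a Benjamini-Hochberg adjusted p under 0.05 over all 11881 genes. On this scale the change of a low gene is understated. In none of the 5 contrasts was a member called. The share of all tested genes called was 9.41% between genotypes with vehicle, 10.9% between genotypes with pyridostatin, 4.17% for pyridostatin in WT, 5.56% for pyridostatin in PARP3-/- and 0% for the interaction. At an unadjusted p under 0.05, the members numbered 2, 1, 2, 1 and 1 of 24 in that order, where 21.6%, 24.0%, 20.3%, 19.6% and 4.39% of all tested genes had one.

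The intervals bound the size of what may have been missed on the log2(FPKM + 1) scale, but not the fold change of a low gene in FPKM. With a pseudocount of 0.1, the difference of HIST1H4E for pyridostatin in PARP3-/- was -0.79, against -0.41 with a pseudocount of 1. In each of the 4 two-group contrasts all 24 members had a 95% interval between -1 and 1 on the log2(FPKM + 1) scale, and the bounds ran from -0.92 to 0.91. The members were measured less precisely than most genes, with a median standard error of 0.16 on the log2 scale against 0.0677 over all tested genes. The fitted differences of the members ran from -0.26 to 0.39 between genotypes with vehicle, from -0.34 to 0.17 between genotypes with pyridostatin, from -0.32 to 0.32 for pyridostatin in WT and from -0.41 to 0.16 for pyridostatin in PARP3-/-. Their medians were 0.06, -0.05, -0.01 and -0.09, beside medians over all tested genes of 0.015, 0.0082, 0.003 and 0.0021. The sign of 3 of these medians turned when 1 library was left out. Between genotypes it was -0.03 with vehicle without PARP3-/- vehicle replicate 3 and 0.01 with pyridostatin without PARP3-/- pyridostatin replicate 1, and for pyridostatin in WT it was 0.01 without WT pyridostatin replicate 1. For pyridostatin in PARP3-/- it ran from -0.15 without PARP3-/- pyridostatin replicate 3 to -0.02 without PARP3-/- vehicle replicate 3. Contrasts that share a group share its libraries, so these medians are not independent of each other.

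**Figure D3:**
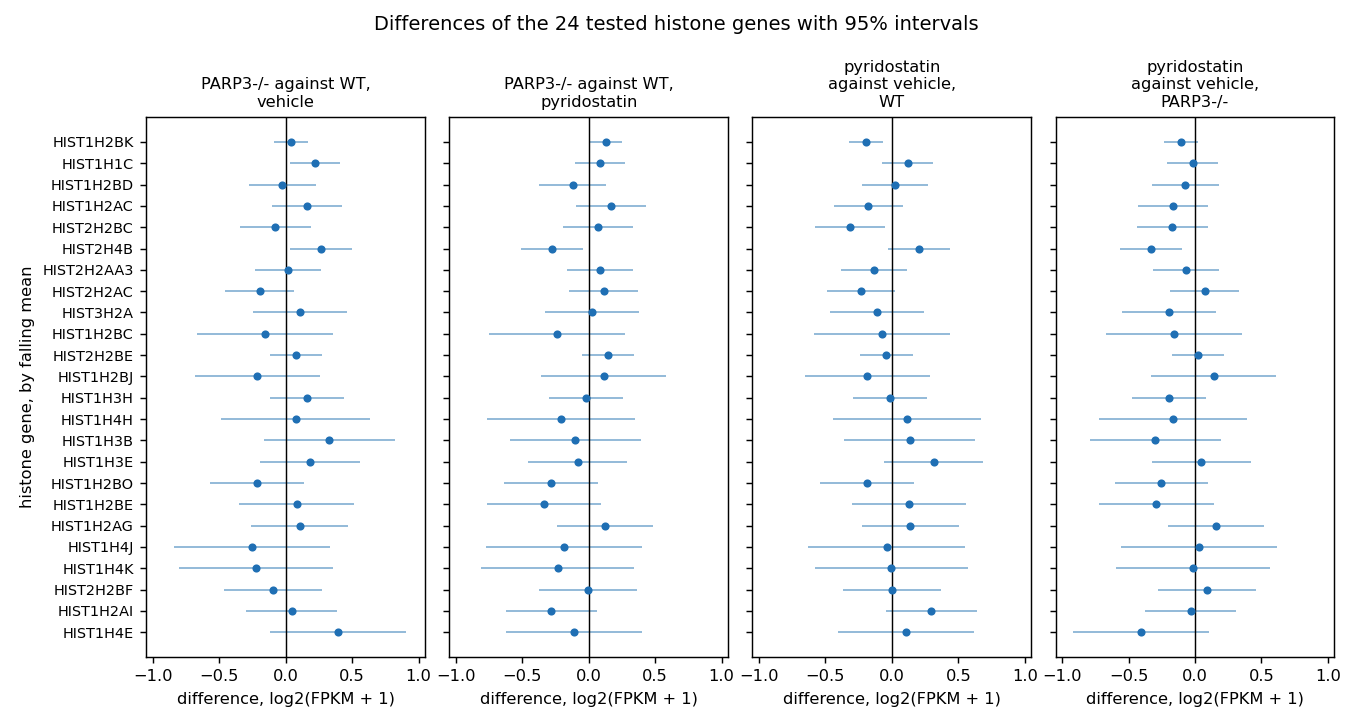
Fitted differences of the 24 tested histone genes in 4 contrasts, in units of log2(FPKM + 1), with points for the estimate and lines for the 95% interval. Every line stays between -1 and 1, and lines are shortest for HIST1H2BK at the top and longest among the low genes at the bottom.

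Between genotypes with vehicle, the members with the smallest p were HIST1H1C, HIST2H4B and HIST1H4E, and none of them passed. HIST1H1C was at 20.6, 26.1 and 24.4 FPKM in WT and at 26.5, 26.5 and 30.1 FPKM in the libraries labelled PARP3-/-. The lowest PARP3-/- library thus lay just above the highest WT library. The difference was 0.22 on the log2 scale (SE 0.086, 95% interval 0.029 to 0.41, adjusted p = 0.161 in limma). Without WT vehicle replicate 2, whose value is the highest of the WT libraries, it was 0.29 with an adjusted p of 0.05 that fell just below the threshold, in a fit that called 14.0% of all tested genes. Without WT vehicle replicate 1, whose value is the lowest, it was 0.13 (adjusted p = 0.354), and over all alternatives the adjusted p ran from 0.05 to 0.405. HIST2H4B was at 7.10, 8.13 and 8.27 FPKM in WT and at 8.50, 9.16 and 11.3 FPKM in PARP3-/-, a difference of 0.26 (SE 0.106, 95% interval 0.029 to 0.50, adjusted p = 0.173), or 0.16 without PARP3-/- vehicle replicate 3 (adjusted p = 0.451). HIST1H4E was at 0.648, 0.615 and 1.38 FPKM in WT and at 1.11, 1.77 and 1.46 FPKM in PARP3-/-, which overlap (difference 0.39, SE 0.231, adjusted p = 0.377). HIST1H1C and HIST2H4B were the only 2 of the 24 members whose groups did not overlap, where 24.2% of all tested genes did not.

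With pyridostatin, the members with the smallest p between genotypes were HIST2H4B, HIST1H2BK and HIST1H2AI, and none passed. HIST2H4B was at 9.62, 8.02 and 9.98 FPKM in WT and at 7.58, 6.75 and 7.91 FPKM in PARP3-/-, so the PARP3-/- libraries now lay below all WT libraries. The difference was -0.28 (SE 0.106, 95% interval -0.51 to -0.043, adjusted p = 0.134 in limma). HIST1H2BK was at 63.2, 65.0 and 64.0 FPKM in WT and at 69.8, 67.8 and 72.5 FPKM in PARP3-/- (0.13, SE 0.0576, 95% interval -0.0013 to 0.25, adjusted p = 0.213). Without WT vehicle replicate 2, which enters this contrast only through the shared estimate of the spread, the adjusted p of HIST1H2BK was 0.0166, in a fit that called 19.3% of all tested genes. HIST1H2AI, a gene for H2A, was at 1.38, 1.56 and 1.62 FPKM in WT and at 1.07, 1.10 and 1.04 FPKM in PARP3-/- (-0.28, SE 0.155, adjusted p = 0.309). The 3 PARP3-/- values of HIST1H2AI lay close together, and in a fit of these 6 libraries alone the same difference was called (adjusted p = 0.0163), as were 13.7% of all tested genes. In all, 4 members did not overlap between the groups, 2 higher and 2 lower, where 35.2% of all tested genes did not; the fourth was HIST2H2BE, named after its values were seen.

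Pyridostatin in WT cells gave the smallest adjusted p of any member, that of HIST1H2BK. It was at 68.5, 81.9 and 71.0 FPKM with vehicle and at 63.2, 65.0 and 64.0 FPKM with pyridostatin. All treated libraries lay below all vehicle libraries. The difference was -0.20 (SE 0.0576, 95% interval -0.32 to -0.069, adjusted p = 0.0874 in limma). It was -0.25 with an adjusted p of 0.0491 without WT vehicle replicate 1, where 3.07% of all tested genes were called, so 1 library decided on which side of the threshold it fell. Without WT vehicle replicate 2, the library at 81.9 FPKM, it was -0.12 (adjusted p = 0.0689), and over all alternatives the adjusted p ran from 0.0491 to 0.316. HIST2H2BC was at 13.0, 9.87 and 12.8 FPKM with vehicle and at 9.31, 8.52 and 10.0 FPKM with pyridostatin (-0.32, SE 0.12, adjusted p = 0.173), and its groups overlapped through WT vehicle replicate 2. HIST2H2AC was at 4.64, 5.11 and 4.02 FPKM with vehicle and at 3.98, 3.43 and 3.84 FPKM with pyridostatin (-0.23, SE 0.117, adjusted p = 0.297). No overlap was found for 3 members, 1 higher (HIST1H2AI) and 2 lower, where 23.1% of all tested genes did not overlap.

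Pyridostatin in PARP3-/- cells gave HIST2H4B, HIST1H2BK and HIST1H4E as the members with the smallest p, and none passed. HIST2H4B was at 8.50, 9.16 and 11.3 FPKM with vehicle and at 7.58, 6.75 and 7.91 FPKM with pyridostatin, a difference of -0.33 (SE 0.106, 95% interval -0.57 to -0.1, adjusted p = 0.102 in limma). HIST1H2BK was at 74.4, 75.7 and 76.5 FPKM with vehicle and at 69.8, 67.8 and 72.5 FPKM with pyridostatin (-0.11, SE 0.0576, 95% interval -0.24 to 0.019, adjusted p = 0.344, or 0.0439 without WT vehicle replicate 2, where 13.1% of all tested genes were called). For both genes every treated library lay below every vehicle library, and they were the only 2 members without overlap, where 32.3% of all tested genes had none. HIST1H4E was at 1.11, 1.77 and 1.46 FPKM with vehicle and at 1.64, 0.633 and 0.428 FPKM with pyridostatin (-0.41, SE 0.231, adjusted p = 0.38), with overlap. Its difference was -0.67 without PARP3-/- pyridostatin replicate 1 and -0.23 without PARP3-/- pyridostatin replicate 3, and neither passed.

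**Figure D4:**
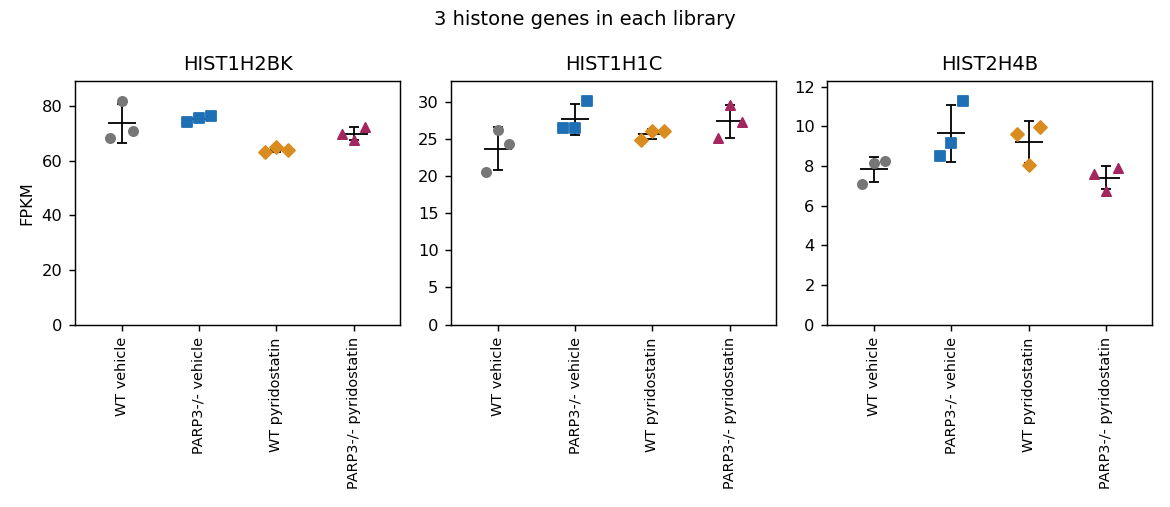
FPKM of HIST1H2BK, HIST1H1C and HIST2H4B in each library, with 1 point for a library, black marks for the mean ± SD of 3 libraries and axes that start at 0. The mean of HIST2H4B is highest with the PARP3-/- label and vehicle and lowest with the PARP3-/- label and pyridostatin, and the HIST1H2BK points with pyridostatin lie below those with vehicle under both labels, though none of these differences passed the test.

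Whether the response to pyridostatin differed between the genotypes was tested as the interaction, for which no gene of the 11881 was called and 521 had an unadjusted p under 0.05. HIST2H4B had the smallest p among the members, with an interaction of -0.54 (SE 0.149, 95% interval -0.87 to -0.21, unadjusted p = 0.0043, adjusted p = 0.9985 in limma). HIST2H2AC (0.31, SE 0.166) and HIST1H4E (-0.51, SE 0.327) followed, and neither interval excluded 0. In HIST2H4B the groups were separated in one direction with vehicle and in the other with pyridostatin.

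The 27 members below the tested mean had means of 0.0911 to 0.842 FPKM. Low values of a gene are whole multiples of a step, which is the worth of 1 read, or of part of a read where reads are divided between copies. The steps could be read for 31 members, 22 of them untested, within a tolerance of 0.1 of a step. A step was worth 0.0475 to 0.222 FPKM at the median depth. The 22 untested members had 8 to 145 steps over all 12 libraries together, with a median of 22, and 4 of them (HIST1H2AM, HIST1H2AJ, HIST1H2AK and HIST2H3D) had over 100. For the other 5 untested members no steps could be read. In the 4 members with over 100 steps, a step was worth 0.0475 to 0.0767 FPKM, against 0.130 in HIST1H2AH (H2A) and 0.136 in HIST1H3A (H3). A step may therefore be part of a read in those 4, and their counts may overstate their reads. Of all members, 17 were at 0 in some library and 34 above 0 in every library. At such numbers a value of 0 says only that no read was assigned at this depth.

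Some H4 genes show how few reads were captured. HIST1H4C, a gene for H4, had 3, 3 and 2 steps in the WT vehicle libraries, 1, 2 and 2 in PARP3-/- vehicle, 1, 1 and 0 in WT pyridostatin and 1, 1 and 1 in PARP3-/- pyridostatin. HIST1H4I, named after its values were seen, had 3, 3 and 0 steps in WT vehicle, 1, 3 and 3 in PARP3-/- vehicle, 0 in all 3 WT pyridostatin libraries and 2, 2 and 2 in PARP3-/- pyridostatin. In these genes the libraries therefore differed by at most 3 steps. HIST1H2AB and HIST1H2BM, in all 3 WT vehicle libraries, and HIST1H3I, in all 3 PARP3-/- pyridostatin libraries, were likewise at 0 throughout a group. In 6 H4 genes a step was worth 0.194 to 0.222 FPKM and in HIST4H4 it was worth 0.174, but in HIST1H4J and HIST1H4K it was worth 0.119 and 0.121. The ratio of HIST1H4J to HIST1H4K was within 1% of 0.987 in 8 of the 12 libraries, whereas no other of the 561 pairs of members compared kept its ratio in more than 3 libraries. The values of HIST1H4J and HIST1H4K were therefore not separate measurements in most libraries, and reads may have been divided between them.

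A fit that admitted all genes above 0 in at least 6 libraries, and so all 51 members, gave 2 calls. HIST1H4C was called for pyridostatin in WT (-0.46, SE 0.0852, adjusted p = 0.0197), where 2.85% of 16768 genes were called, and rests on 8 steps in 3 vehicle libraries against 2 in 3 treated ones. HIST1H2AH, a gene for H2A, was called between genotypes with pyridostatin (-0.44, SE 0.111, adjusted p = 0.0314), where 9.57% were called, and rests on 2, 6 and 3 steps in WT against 0, 0 and 1 in PARP3-/-. With no filter on the mean, the same 2 contrasts held 1 called member each, with adjusted p of 0.0272 in the first (2.46% of 19332 genes called) and 0.0440 in the second (7.91%). No member was called in the other 3 contrasts of the fit of genes above 0 in at least 6 libraries, with smallest adjusted p of 0.111 (8.39% of genes called), 0.133 (3.79%) and 0.967 (0%).

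The genes that transcribe histone genes and process their mRNAs were followed beside the members. Of 29 tested genes of this list, none was called between genotypes with vehicle, CCNE1 was higher in PARP3-/- with pyridostatin, SLBP fell with pyridostatin in WT, and CDK2 fell and UPF1 rose with pyridostatin in PARP3-/-. Of all tested genes, 9.41%, 10.9%, 4.17% and 5.56% were called in these contrasts, in that order. SLBP, the protein that binds the stem-loop, was at 46.8 ± 1.83 FPKM (SD, n = 3) in WT vehicle and 39.3 ± 1.67 in WT pyridostatin (-0.24, SE 0.0515, adjusted p = 0.0265 in limma). In PARP3-/- it was at 46.2 ± 2.35 and 42.2 ± 2.01, a difference of -0.13 that did not pass (adjusted p = 0.2), and the interaction was 0.12 (SE 0.0728), which did not pass either. NPAT, the activator of histone gene transcription that cyclin E and CDK2 phosphorylate, was at 2.31 to 3.61 FPKM over all libraries, and its differences lay between -0.014 and 0.097 with none called. CASP8AP2, a partner of NPAT at histone genes, was at 3.18 to 4.85 FPKM, with its largest difference of the 4 contrasts, -0.24, for pyridostatin in PARP3-/- (adjusted p = 0.194).

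Genes whose mRNAs are known to peak in S phase but carry a poly(A) tail were counted beside the histone genes. This list shares SLBP, CASP8AP2 and CCNE2 with the list of histone transcription and processing genes. Of 42 tested, 14 fell with pyridostatin in WT and 23 in PARP3-/-, where 4.17% and 5.56% of all tested genes were called in either direction. None of the 42 was called as higher, and the medians were -0.19 and -0.27. Their summed FPKM was 1823 ± 18.2 with vehicle and 1669 ± 20.1 with pyridostatin in WT, and 1810 ± 18.5 and 1613 ± 5.27 in PARP3-/-, with no overlap. Among them, GINS2 of the replicative helicase fell by 0.46 in WT (adjusted p = 0.0038 in limma) and by 0.40 in PARP3-/- (adjusted p = 0.0066). MCM6, a subunit of the same helicase, fell by 0.33 and 0.38 on the log2 scale in WT and PARP3-/-, and CDC45, another component of it, fell by 0.32 and 0.41. Between genotypes, RRM1 and RRM2 of ribonucleotide reductase were lower in PARP3-/- with pyridostatin, and none of the 42 was called with vehicle. Of all tested genes, 10.9% and 9.41% were called in these contrasts. In bulk RNA, fewer cells in S phase and less RNA per such cell cannot be told apart. The difference between these counts and those of the histone genes was not tested, and the histone genes have the larger errors.

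Histone chaperones and other genes of histone supply, MCM2, HAT1 and IPO4 among them, were counted in the same way, together as chaperone genes. So were replication-independent histones, whose mRNAs usually carry poly(A) tails. Of 14 tested chaperone genes, 3 fell with pyridostatin in WT (MCM2, CHAF1B and ASF1B, by 0.31, 0.22 and 0.21 on the log2 scale) and 7 in PARP3-/-, NASP by 0.31 among them. Of all tested genes, 4.17% and 5.56% were called in these contrasts. MCM2, CHAF1B and NASP are also among the S phase genes above, so the counts of these lists are not independent. Between genotypes 1 chaperone gene was lower with vehicle (ASF1A) and 1 with pyridostatin (SSRP1), where 9.41% and 10.9% of all tested genes were called. Of 11 tested replication-independent histone genes, H2AFZ, the gene for the variant H2A.Z, fell with pyridostatin in WT (-0.27, SE 0.0549, adjusted p = 0.0251) and in PARP3-/- (-0.22, adjusted p = 0.0418). CENPA, the H3 variant of centromeres, fell in WT by 0.27, and H1F0, a linker histone of cells at rest, fell in PARP3-/- by 0.23. H1F0 was 0.14 higher in PARP3-/- with vehicle and H2AFY2, a gene for macroH2A, 0.17 higher with pyridostatin. These histones amounted to 1001 to 1231 FPKM per library in sum, beside 180.9 to 223.3 FPKM for the 51 clustered genes.

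**Figure D5:**
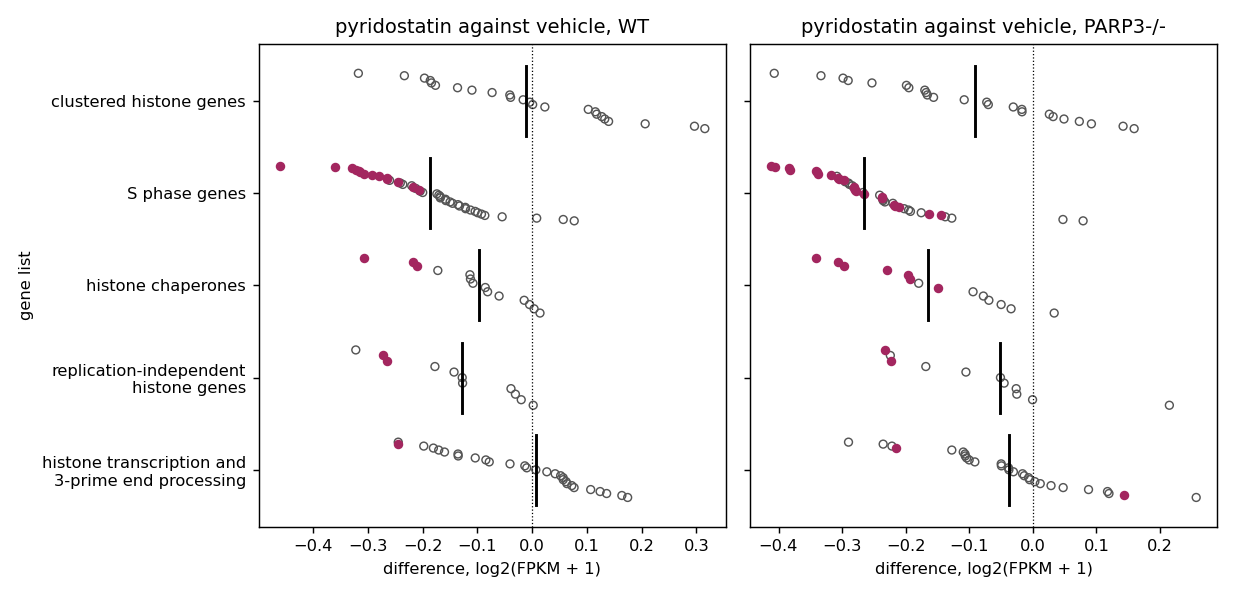
Differences with pyridostatin, in units of log2(FPKM + 1), for the tested genes of 5 lists in WT (left) and PARP3-/- (right), with filled points for genes called at an adjusted p under 0.05, open points for the others and a black line at each list's median. Points of a list are spread vertically by rank, and genes shared by lists are drawn in each of them. The clustered histone genes hold no filled point, and 14 and 23 of the 42 S phase genes are filled, all left of 0.

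Other RNAs known to lack a poly(A) tail were followed beside the histone genes. Of 17 such genes in the table, 4 were tested and none was called in any contrast. Their summed FPKM ran from 19.7 to 57.8 over the libraries, and the groups overlapped in all comparisons, with 27.6 to 42.1 FPKM in WT vehicle and 19.7 to 53.6 in WT pyridostatin. The sum thus ranged widely within a group. It depended in part on single genes that were at 0 in some libraries. RNU6ATAC ranged from 0 to 30.6 FPKM and RNU11 from 0 to 7.34, whereas RMRP ranged from 2.00 to 7.51. RNU4ATAC, RNU12, VTRNA1-1, VTRNA1-2 and VTRNA1-3 were at 0 in every library. The reads behind these values were not estimated, so the sum cannot say how much untailed RNA entered the libraries. The part of untailed RNA in the histone values was not tested.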

How the data were processed

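RNA-seq of 12 A549 libraries (4 groups, 3 biological replicates each) was used. The authors prepared stranded mRNA libraries, sequenced single-end reads and deposited FPKM values, 1 column per library and without pooling. The submitters' processing notes name bcl2fastq 2.16, STAR 2.5, Cufflinks and the builds hg19 and mm9, with no role for each, and the annotation is not given in the sources used here. Counting to genes, and any division of reads between near-identical histone genes, is therefore already in the FPKM values. The read counts that the authors tested with DESeq2 were not used here.

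limma 3.58.1 in R 4.3.3 fitted 1 model of the 4 groups to log2(FPKM + 1), with a pseudocount of 1, a mean of at least 1 FPKM, eBayes with a trend and Benjamini-Hochberg adjustment over 11881 genes. A simulated table in which 200 genes were changed was used to check it. FPKM values give no depth. Relative depth and steps were estimated from whole multiples among low values, with at most 30 steps per value. Stem-loops came from GENCODE release 29 transcripts, promoters from RefSeq (GRCh38.p14), and no position was carried to the build of the table. Other steps used Python 3.11.15 (pandas 2.3.3, numpy 2.4.6, and matplotlib 3.10.9 for figures).

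The members and gene lists were chosen with earlier results of these data known. The rule for named genes takes the 10 highest members, the highest of each subfamily and cluster, members at the edge of the rule, members called (or the 3 with the smallest p where fewer than 3 were called), the 3 smallest interaction p, at most 5 called genes per list by size of change, and SLBP, NPAT and CASP8AP2. Alternatives were a pseudocount of 0.1, no filter, genes above 0 in at least 6 libraries, quantile normalization, a common median, a block for the replicate number, eBayes without a trend, only the libraries of a comparison, and each library left out.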

Additional observations from a re-analysis of the deposited data

Results flagged for a closer look

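HIST2H4B, a gene for H4, stood out because its 3 libraries labelled PARP3-/- lay above all WT libraries with vehicle and below all WT libraries with pyridostatin. The difference between the 2 genotype contrasts, tested as the interaction in limma, was -0.54 on the log2(FPKM + 1) scale (SE 0.149), with an unadjusted p of 0.0043 and an adjusted p of 0.9985 over all 11881 genes, so it did not pass. Over the alternatives it ranged from -0.63 to -0.43, with adjusted p from 0.366 to 1.0. It was looked for among 51 members. The near-identical copy HIST2H4A has no row of its own, so whether and how its reads entered the value of HIST2H4B is not known.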

How the results depend on the processing

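The count of called members, 0 in every contrast, became 1 under some alternatives. Between genotypes with vehicle it ranged from 0 to 1 over the leave-one-out fits. Between genotypes with pyridostatin it was 1 with no filter on the mean, 1 with genes above 0 in at least 6 libraries, 1 with only the libraries of the comparison and 0 to 1 over the leave-one-out fits. For pyridostatin in WT it was 1 with no filter, 1 with genes above 0 in at least 6 libraries and 0 to 1 over the leave-one-out fits, and in PARP3-/- it ranged from 0 to 1 over the leave-one-out fits. For the interaction it was 0 throughout. The genes called were HIST1H1C, HIST1H2BK, HIST1H2AI, HIST1H4C and HIST1H2AH, as given above. The fits that called a member called 14.0% of all genes they tested between genotypes with vehicle, 7.91% to 19.3% between genotypes with pyridostatin, 2.46% to 3.07% for pyridostatin in WT and 13.1% in PARP3-/-. Of 394 values of 20 named differences under the alternatives, 384 kept their direction and side of the threshold, 5 passed it and 5 changed sign. The sign changes were of HIST1H2BK between genotypes with vehicle (-0.0023 with a common median and -0.014 to 0.11 over the leave-one-out fits) and of HIST1H1C for pyridostatin in PARP3-/- (0.0047 with quantile normalization, and -0.074 to 0.042 over the leave-one-out fits). Their causes were not tested. Over the members at a mean of at least 1 FPKM alone, the summed FPKM was 187.9 in WT vehicle, 176.5 in WT pyridostatin and 181.3 in PARP3-/- pyridostatin, since fewer genes are summed. The number of all tested genes called ranged from 532 to 1657 (1118 as reported), 805 to 2294 (1297), 65 to 710 (495), 254 to 1554 (661) and 0 to 1 (0) in the order of the contrasts above.

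Same-numbered replicates deviated together with correlations from -0.12 to 0.216, so the numbers were not taken to pair the samples. With the replicate number as a block no member was called, and 1052, 1214, 411, 589 and 0 of all tested genes were. Depth limits the 27 untested members.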
